A study of Mus musculus with 17 samples.

Results

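Transcripts of neutrophil granule and calgranulin genes were followed in RNA-seq libraries of newborn mice that did or did not carry osteocalcin. The set holds 10 genes, S100a8, S100a9, Ngp, Ltf, Camp, Lcn2, Chil3, Retnlg, Mpo and Elane, taken by symbol from the 55359 genes of the count table. The genes were selected on a list drawn up when their levels in the WT and mutant libraries were already known, so their differences between genotypes are given as a description. No p is given for them, and counts of them past edgeR's threshold are printed beside the share of all genes with nothing read from them. All 10 were found in the table, all 10 had a count in at least 1 testis library, and 9 had a count in at least 1 forebrain library.

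The mice were male pups of the OcnGK strain at postnatal day 1, on a 129/SvEv background, in which osteocalcin was removed by homologous recombination in embryonic stem cells. Testes came from 2 WT, 3 Ocn+/- (labelled Het) and 3 Ocn-/- (labelled KO) pups. Brain tissue, labelled hippocampus and described by the study as forebrain with the hippocampus, came from 3 pups of each genotype. WT pups had WT mothers, and both Ocn+/- and Ocn-/- pups had Ocn-/- mothers, so the genotype of the pup, the genotype of the mother and the litter cannot be told apart in any comparison with WT. The comparison of Ocn-/- with Ocn+/- pups does not carry the difference in mothers. The sources used here do not say whether a testis and a forebrain library came from the same pup, and p-values measure the spread between these libraries only.

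Neutrophils are short-lived white cells that are made in bone marrow and carry their antimicrobial proteins ready-made in granules. The genes of these proteins are switched on in waves while the cell matures. Mpo and Elane, which encode myeloperoxidase and neutrophil elastase of the primary granules, are transcribed in early precursors. Ltf, Camp, Ngp, Lcn2 and Chil3 belong to the later wave that fills the secondary granules, and S100a8 and S100a9 encode the cytosolic calcium-binding calgranulins that stay abundant in the mature cell. Factors of the C/EBP family and PU.1 are known drivers of this programme. Lcn2 is also made by epithelial and stromal cells, and Chil3 by macrophages.

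The 250 bases before the start of the canonical transcript are shown for 6 of the 7 genes whose level in each WT testis was above that of every mutant testis, and for Lcn2, which did not follow them. They were read 5′ to 3′ from the GRCm39 genome with GENCODE vM39 starts, at chr3:90576035-90576284 on the plus strand for S100a8, chr3:90603072-90603321 on the minus strand for S100a9, chr9:110248565-110248814 on the plus strand for Ngp, chr9:110848089-110848338 on the plus strand for Ltf, chr9:109678686-109678935 on the minus strand for Camp, chr3:106074881-106075130 on the minus strand for Chil3 and chr2:32277810-32278059 on the minus strand for Lcn2. Capitals mark matches to TTNNGNAA on either strand, a short form of the C/EBP recognition sequence.
S100a8: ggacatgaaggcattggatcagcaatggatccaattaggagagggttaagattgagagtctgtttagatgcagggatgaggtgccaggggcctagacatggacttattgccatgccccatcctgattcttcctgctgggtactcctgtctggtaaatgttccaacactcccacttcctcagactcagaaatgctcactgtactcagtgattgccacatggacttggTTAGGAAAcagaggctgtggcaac
S100a9: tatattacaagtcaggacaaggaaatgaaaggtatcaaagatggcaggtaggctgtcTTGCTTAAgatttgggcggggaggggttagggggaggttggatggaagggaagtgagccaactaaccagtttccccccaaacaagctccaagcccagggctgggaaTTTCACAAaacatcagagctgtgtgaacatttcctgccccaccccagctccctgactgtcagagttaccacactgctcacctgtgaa
Ngp: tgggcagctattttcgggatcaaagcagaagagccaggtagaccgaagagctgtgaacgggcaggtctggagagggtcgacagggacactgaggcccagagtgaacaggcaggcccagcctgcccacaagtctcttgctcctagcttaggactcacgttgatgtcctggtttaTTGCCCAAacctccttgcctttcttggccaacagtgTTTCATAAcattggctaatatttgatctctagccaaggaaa
Ltf: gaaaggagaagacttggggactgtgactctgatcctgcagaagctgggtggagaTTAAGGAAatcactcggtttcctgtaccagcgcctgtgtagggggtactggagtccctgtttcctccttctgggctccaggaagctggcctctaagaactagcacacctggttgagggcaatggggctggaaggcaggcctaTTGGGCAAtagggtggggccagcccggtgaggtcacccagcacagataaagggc
Camp: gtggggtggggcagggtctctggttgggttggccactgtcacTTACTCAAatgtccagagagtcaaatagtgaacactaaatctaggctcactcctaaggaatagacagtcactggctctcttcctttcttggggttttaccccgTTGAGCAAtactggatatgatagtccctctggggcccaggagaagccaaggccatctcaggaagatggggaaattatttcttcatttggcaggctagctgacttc
Chil3: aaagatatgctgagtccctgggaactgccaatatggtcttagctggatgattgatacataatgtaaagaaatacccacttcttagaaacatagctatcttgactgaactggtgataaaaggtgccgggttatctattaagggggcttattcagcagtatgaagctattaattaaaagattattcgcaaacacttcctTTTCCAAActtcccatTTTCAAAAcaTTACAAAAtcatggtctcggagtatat
Lcn2: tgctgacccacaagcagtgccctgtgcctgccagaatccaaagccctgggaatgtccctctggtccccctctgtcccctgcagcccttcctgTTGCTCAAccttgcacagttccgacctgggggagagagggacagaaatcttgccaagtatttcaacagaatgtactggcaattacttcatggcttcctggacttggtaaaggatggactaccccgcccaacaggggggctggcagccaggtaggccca

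A match to TTNNGNAA stood in the 250-base window of 8 of the 10 genes, all but Retnlg and Elane, and in 36.9% of the windows of 21751 protein-coding genes. Ngp, Ltf, Camp and S100a9 each held 2 matches, and Chil3 held 3. The PU.1 core GAGGAA, on either strand, stood in 4 of the 10 windows (S100a8, Ltf, Mpo and Elane) against 22.9% of all windows, and CCAAT, on either strand, in 6 against 36.5%. TATAAA on the coding strand stood in none of the 10 and in 8.03% of all windows. The matches describe the letters of these windows, and binding was not measured.

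Ngp, Ltf and Camp lie near each other on chromosome 9, from Camp at 109676442 to Ltf at 110871835 in GRCm39. S100a8 and S100a9 are neighbours on chromosome 3, at distances of 2.28 and 2.31 Mb from the osteocalcin gene Bglap, and Chil3 is on the same chromosome at a distance of 17.8 Mb. Of 138 tested genes within 5 Mb of Bglap, 5 were lower and 6 higher in Ocn+/- testes (7.97%), and 6 were lower and 6 higher in Ocn-/- testes (8.7%), beside 8.25% and 5.64% of all tested genes. Without S100a8 and S100a9, which lie in that window, 4 of 136 were lower and 6 higher (7.35%) in each. The S100 family served as a check of the locus that was chosen after the values were seen: 11 other S100a genes lie on chromosome 3, 8 of them could be tested, and 0 passed edgeR's test at an adjusted p under 0.05 in either comparison with WT. At an unadjusted p under 0.05 there were 1 in Ocn+/- and 3 in Ocn-/-, beside 25.9% and 23.0% of all tested genes, and 6 and 7 of the 8 had a log2 fold change below 0. In Ocn-/- testes it was -0.89 ± 0.271 for S100a16 (edgeR adjusted p = 0.0664) and -0.47 ± 0.157 for S100a11 (adjusted p = 0.0892). S100a6, of those tested the nearest to S100a8 and not to Bglap, had log2 fold changes of -0.03 ± 0.260 (SE) in Ocn+/- and -0.67 ± 0.262 in Ocn-/- testes. No annotated gene overlapped 9 of the 10, and a long noncoding RNA lay opposite Mpo. Of the 50-base stretches in Chil3 transcripts, 22.7% also occurred in Chil4 or Gm6522, so reads of Chil3 could have been divided among them. For the other 9 genes this share was at most 0.26%.

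Testis libraries held 7302401 to 8289015 counts, and forebrain libraries 6518151 to 14621584. At this depth 3 counts correspond to 0.356 to 0.413 CPM (the usual depth-scaled count, here with TMM factors) in testes and 0.201 to 0.534 CPM in forebrain. The osteocalcin genes could not serve as a check of genotype, because Bglap had 0 counts in 7 of 8 testes and 2 in Ocn+/- replicate 2, and Bglap2 had 0 in every library. In forebrain Bglap had 5, 1 and 0 counts in WT, 2, 2 and 1 in Ocn+/-, and 0, 1 and 1 in Ocn-/-. The related gene Bglap3 had 6 and 2 counts in WT testes, 5 to 17 in mutant testes and 0 to 3 in forebrain. Markers of the labelled organs were in place, with a summed level of 12 testis genes of 2985 and 2997 CPM in WT testes, 1717 to 2618 CPM in mutant testes and 45.0 to 61.7 CPM in WT forebrains, and of 12 forebrain genes of 3338 to 4356 CPM in forebrains and 54.1 to 60.2 CPM in WT testes. Forebrain WT replicate 3 stood apart from the other WT forebrains, with a chi-square per degree of freedom of 69.9 and 90.8 against 3.57 between those, and the forebrain sums of the granule genes and of the granulopoiesis factors are also given without it.

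In testes, transcripts of 7 of the 10 genes were higher in each of the WT libraries than in any of the 6 mutant libraries. Of all genes that passed the filter on low counts, 13.6% showed this separation, and Retnlg, among the 7, had not passed it. The level of S100a8 was 20.2 and 12.1 CPM in WT testes, 1.46, 3.53 and 2.75 CPM in Ocn+/- testes, and 1.42, 1.02 and 3.54 CPM in Ocn-/- testes. These correspond to 156 and 96 counts in WT against 8 to 28 in mutants. The lowest WT library was 3.42 times the highest mutant library, and the log2 fold change from WT was -2.63 ± 0.438 (SE) in Ocn+/- and -3.01 ± 0.448 in Ocn-/- testes. S100a8 forms a dimer, calprotectin, with S100a9, which binds calcium, zinc and manganese.

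S100a9 reached 20.7 and 13.6 CPM in WT, 1.73, 3.53 and 7.98 CPM in Ocn+/-, and 0.948, 1.15 and 3.54 CPM in Ocn-/- testes. Its fold change was -1.96 ± 0.595 on the log2 scale in Ocn+/- and -3.19 ± 0.642 in Ocn-/-. Without Ocn+/- replicate 3 the former was -2.69. The lowest WT library was 1.71 times the highest mutant, Ocn+/- replicate 3, which held 58 counts. That library had 2.9 counts of S100a9 for each count of S100a8, where the other 7 testes had 0.667 to 1.18.

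Ngp, a granule protein of the cystatin family, was at 17.1 and 8.2 CPM in WT, 1.2, 2.4 and 1.51 CPM in Ocn+/-, and 0.948, 0.255 and 1.9 CPM in Ocn-/- testes. It fell by 2.88 ± 0.501 (SE) on the log2 scale in Ocn+/- and its log2 fold change in Ocn-/- was -3.59 ± 0.527. Ltf, which encodes the iron-binding lactoferrin, was at 6.87 and 4.79 CPM in WT, 0.266, 0.883 and 0.688 CPM in Ocn+/-, and 0.593, 0.382 and 1.26 CPM in Ocn-/- testes. Changes of -3.21 ± 0.570 (Ocn+/-) and -2.94 ± 0.553 (Ocn-/-) on the log2 scale lay within 1 SE of each other. Ocn-/- replicate 3 was the highest of the Ocn-/- testes for S100a8, S100a9, Ngp and Ltf, and without it the log2 fold changes in Ocn-/- were -3.70 for S100a8, -4.02 for S100a9, -4.34 for Ngp and -3.53 for Ltf. Without WT replicate 1 those of Ngp were -2.25 in Ocn+/- and -2.96 in Ocn-/-.

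Camp, the cathelicidin precursor, had few counts in every testis, 11 and 15 in WT, 3, 1 and 6 in Ocn+/-, and 0, 5 and 1 in Ocn-/-. The WT libraries were nonetheless above all mutants, and the log2 fold changes were -1.87 ± 0.853 and -2.66 ± 0.913. The former was -2.60 without Ocn+/- replicate 3, and the latter ran from -4.44 without Ocn-/- replicate 2 to -2.06 without Ocn-/- replicate 1. Chil3, a chitinase-like protein also known as Ym1, had 19 and 13 counts in WT testes, and 1 count in all 3 Ocn+/- and 1 in all 3 Ocn-/- testes together. Scaled for depth, its pooled level in WT was 48.0 times that of the mutants, with an exact 95% interval of 12.2 to 413 that covers counting error only. Retnlg, a resistin-like secreted protein, separated by a margin of 1.03 times only, with 8 and 9 counts in WT and 0 to 8 in mutants.

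**Figure D1:**
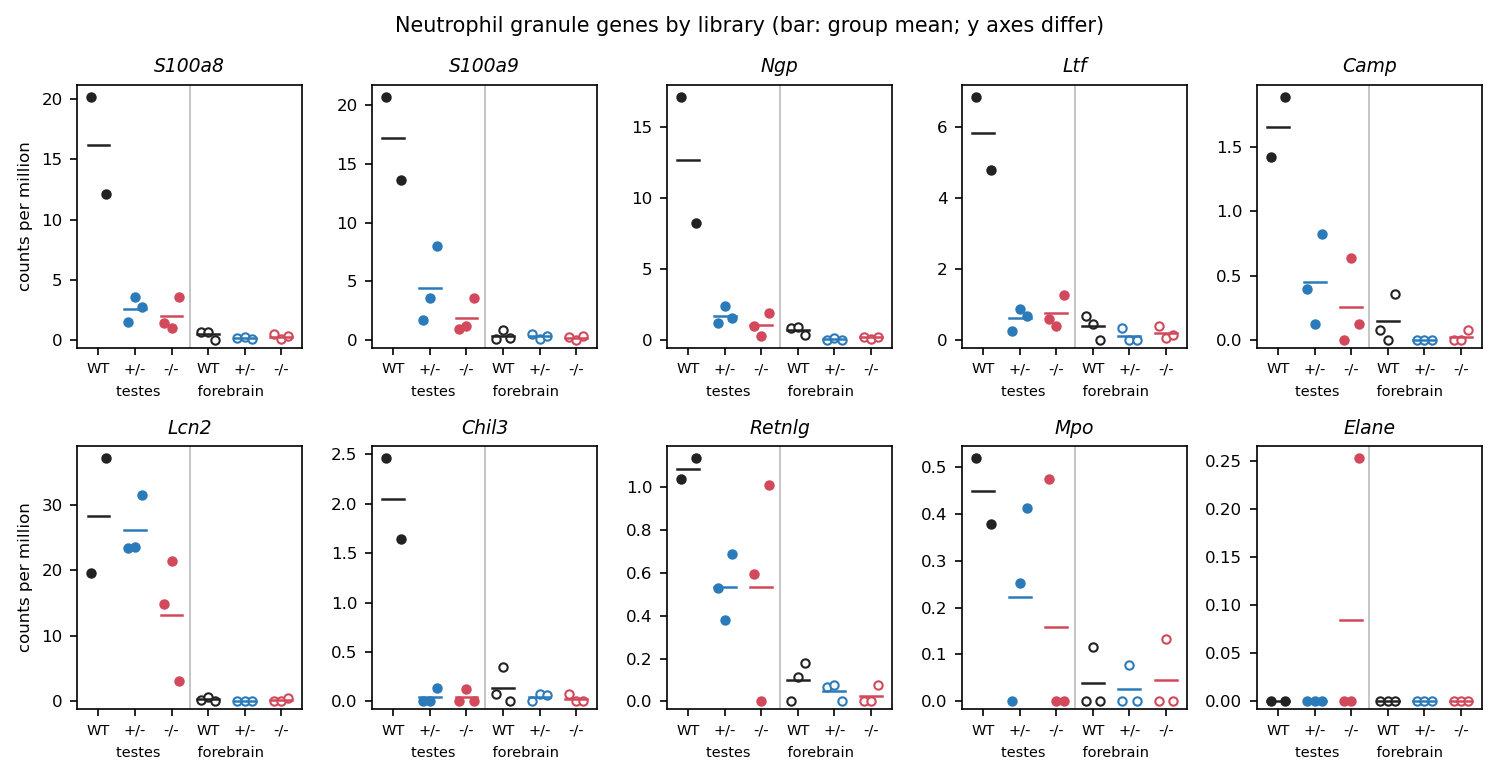
Level of each of the 10 genes in CPM (depth-scaled counts, y axis, a scale per gene) in every library, with filled points for testes, open points for forebrain, black for WT, blue for Ocn+/- and red for Ocn-/-, and a bar at the group mean. S100a8 lay at 20.2 and 12.1 CPM in WT testes and at 1.02 to 3.54 CPM in mutant testes, while Lcn2 overlapped between the genotypes, and all 10 genes were below 1 CPM in every forebrain.

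Lcn2, a lipocalin that binds bacterial siderophores, did not follow the others. Its level was 19.6 and 37.1 CPM in WT, 23.4, 23.6 and 31.5 CPM in Ocn+/-, and 14.8, 21.4 and 3.16 CPM in Ocn-/- testes. Ocn+/- libraries lay inside the WT range, and Ocn-/- replicate 3 was the lowest of the 8 testes. The log2 fold changes were -0.12 ± 0.679 and -1.11 ± 0.692. Lcn2 made up 21.8% and 45.9% of the counts of the 10 genes in WT testes and 67.8% to 80.7% in Ocn+/- testes. In Ocn-/- testes it made up 74.8% and 85.7% in replicates 1 and 2 and 21.4% in replicate 3.

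The primary granule genes were barely seen. Mpo had 4 and 3 counts in WT testes and 0 to 4 in mutants. Elane had 0 counts in 7 of 8 testes, WT included, and 2 counts in Ocn-/- replicate 3. A difference between genotypes was not detectable in either at this depth.

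Of the 7 genes that passed the filter on low counts in testes, 4 were called lower by edgeR in Ocn+/- (S100a8, Ngp, Ltf and Chil3), where 4.36% of all tested genes were called lower and 3.89% higher. S100a9 joined them in Ocn-/-, which made 5 of 7 beside 3.09% of all tested genes called lower and 2.54% higher. These counts follow from how the genes were chosen. Ltf, Camp and Chil3 passed the filter through the WT libraries and would not have passed in the mutants alone, and Retnlg, Mpo and Elane did not pass. With WT replicate 1 left out, 0 were called in Ocn+/- testes and 2 in Ocn-/-, beside 0.766% and 1.35% of all tested genes, and with WT replicate 2 left out, 3 and 2, beside 0.691% and 0.498%. Testing only genes with at least 10 counts in every library left Lcn2 alone among the 10, and 0 were called, beside 11.4% and 7.46% of all genes.

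Between Ocn-/- and Ocn+/- testes, whose mothers shared a genotype, edgeR called 0 of the 7 genes and 0 of all 16361 tested genes (0%). At an unadjusted p under 0.05 there were 0 of the 7, beside 11.5% of all tested genes. DESeq2 called 0 of the 7 as well and gave no adjusted p for 3 of them. The differences were -0.38 ± 0.465 for S100a8, -1.23 ± 0.641 for S100a9, -0.72 ± 0.562 for Ngp, 0.27 ± 0.630 for Ltf, -0.79 ± 1.00 for Camp and -0.99 ± 0.635 for Lcn2 on the log2 scale. Single libraries moved them. Without Ocn-/- replicate 3 they were -1.07 for S100a8, -2.05 for S100a9 and -1.46 for Ngp. S100a9 was at -0.50 without Ocn+/- replicate 3. Camp was at -2.57 without Ocn-/- replicate 2 and -0.05 without Ocn+/- replicate 3. For Lcn2 the Ocn-/- libraries, at 3.16 to 21.4 CPM, lay below the Ocn+/- ones, at 23.4 to 31.5 CPM. The share of all genes with such a separation was not counted, so nothing is read from it. With all libraries, each difference was within 2 SE of 0, which does not show that the genotypes had the same level.

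The summed level of the 10 genes was 85.4 ± 6.40 CPM in WT (SD, n = 2), 36.7 ± 8.93 CPM in Ocn+/- (n = 3) and 19.9 ± 5.10 CPM in Ocn-/- testes (n = 3). Because Lcn2 carried most of the mutants' counts, the sum was also taken over the other 9 genes, a choice made after the values were seen. This sum was 70.4 and 43.8 CPM in WT, 5.58, 11.1 and 14.99 CPM in Ocn+/-, and 4.98, 3.57 and 11.6 CPM in Ocn-/- testes. The mean of WT was 6.60 times that of the 6 mutants, and the lowest WT library 2.92 times the highest mutant. In bulk tissue, fewer cells of a type and less RNA per cell cannot be told apart.

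Per kilobase of exon, the order of the mean levels in WT testes was S100a8 at 16.4, S100a9 at 13.5, Lcn2 at 10.8, Ngp at 9.24, Camp at 1.9, Ltf at 1.64, Chil3 at 1.17 and Retnlg at 1.0 CPM per kb. The ranges of the first 4 over the WT libraries overlapped. In Ocn-/- testes Lcn2 came first at 5.01 CPM per kb, ahead of S100a8 at 2.02, S100a9 at 1.47 and Ngp at 0.755. That order held in replicates 1 and 2, and in replicate 3 Lcn2, at 1.204 CPM per kb, was below the other 3, at 3.59, 2.77 and 1.38. Among the counts of S100a8, S100a9, Ngp and Ltf together, S100a8 took 31.2% in WT (exact binomial 95% interval 28.0 to 34.5) and 30.8% in mutants (26.0 to 35.99). Ngp took 24.4% (21.5 to 27.5) in WT and 18.4% (14.5 to 22.9) in mutants, and S100a9 33.2% (29.9 to 36.5) and 41.5% (36.3 to 46.9). These intervals cover counting error only, and without Ocn+/- replicate 3 the S100a9 share in mutants was 34.0%. In Ocn-/- testes alone it was 33.1%.

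The other genes of neutrophils are not among the 10 and were tested with all genes, but their list too was drawn up with earlier results of these libraries known, so it is not independent evidence. Of 53 such genes found, 33 could be tested in testes. The filter on low counts asks for enough counts in 2 libraries, and 7 of the 33 would not have met it in the mutant libraries alone, so they are given as values and not counted. Of the other 26, 2 were lower and 0 higher in each of Ocn+/- and Ocn-/- testes, Olfm4 and Anxa1. Among all genes that met the filter in the mutant libraries, 4.34% were lower in Ocn+/- and 3.02% in Ocn-/-. The median log2 fold change of the 26 was -0.08 in Ocn+/- and -0.25 in Ocn-/-, against 0.01 and 0.00 over those genes.

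Olfm4, olfactomedin 4 of the secondary granules, had 73 and 56 counts in WT testes, 2, 20 and 12 in Ocn+/-, and 14, 10 and 17 in Ocn-/-. It was lower by edgeR's quasi-likelihood test in both, with log2 fold changes of -2.46 ± 0.520 (adjusted p = 0.0119) and -2.27 ± 0.510 (adjusted p = 0.0176). Without Ocn+/- replicate 2 the former was -3.09. Hp, haptoglobin, which is stored in neutrophil granules and made in liver, had 21 and 16 counts in WT and 1 to 6 in mutants, with log2 fold changes of -2.25 ± 0.687 in Ocn+/- and -2.48 ± 0.694 in Ocn-/-. Fcnb, ficolin B of the secondary granules, had 3 and 2 counts in WT and 0 in all 6 mutants, too few to test. Mmp8, the neutrophil collagenase, overlapped, with 11 and 9 counts in WT, 5, 10 and 4 in Ocn+/-, and 2, 3 and 5 in Ocn-/-.

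The stefins are small inhibitors of cysteine proteases that mouse neutrophils make in several related forms. Stfa2 had 43 and 22 counts in WT testes, 0, 8 and 4 in Ocn+/-, and 2, 3 and 9 in Ocn-/-. Stfa2l1 had 40 and 21 counts in WT and 0 to 8 in mutants, and Stfa3 had 15 and 12 counts in WT and 0 to 5 in mutants. The WT libraries were above every mutant for all 3, which are among the genes that met the filter only with WT. Stfa2 shared 14.2% and Stfa2l1 15.5% of their 50-base stretches with each other or related genes, so their separate counts are uncertain.

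Anxa1, annexin A1, is abundant in neutrophil cytosol and also made by many other cells. It had 588 and 524 counts in WT testes and 312 to 426 in mutants, and was lower in Ocn+/- by 0.60 ± 0.176 on the log2 scale (edgeR adjusted p = 0.0472) and in Ocn-/- by 0.70 ± 0.176 (adjusted p = 0.0303). Of the secondary granule genes that met the filter in the mutant libraries, Olfm4 alone was called. In Ocn+/- the change was 0.58 for Cd177, 0.58 for Cyba, 0.17 for Lyz2 and -0.21 for Cybb on the log2 scale, and in Ocn-/- it was 0.37, -0.15, 0.04 and -0.46, none of them called. Of the other classes, 0 of 3 tested primary granule genes, 0 of 6 tertiary granule genes and 0 of 6 surface genes passed edgeR's test in either comparison. At an unadjusted p under 0.05 these groups held 1, 0 and 0 genes in Ocn+/- and 0, 0 and 1 in Ocn-/-. The shares of all tested genes at that level were 25.9% and 23.0%. The difference between classes was not tested. Csf3r, the receptor for granulocyte colony-stimulating factor, had 11 and 13 counts in WT, 12, 12 and 13 in Ocn+/-, and 11, 6 and 11 in Ocn-/- testes. The most abundant of the 53 in testes were S100a11, Cd63 and Anxa1, at 214, 173 and 51.9 CPM, of which S100a11 and Cd63 are widely expressed and did not pass.

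Markers that define mature neutrophils were close to the limit of detection. Ly6g had 0 counts in both WT testes and 1 count in all, and Fpr1 2 counts in each WT testis. Ctsg, Ms4a3, Fcnb, Wfdc21 and Stfa1 also had at most 3 counts in every testis. The chemokine receptor Cxcr2 had 9 and 10 counts in WT and 1 to 7 in mutants, and did not pass the filter.

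The calls on the other neutrophil genes rested on both WT testes. With either WT library left out, 0 of them passed in either comparison, and without Ocn-/- replicate 1, 0 passed in Ocn-/-, where 2.51% of all tested genes did. DESeq2 called 2 of the 33 in each comparison, beside 12.6% and 9.57% of all genes. It gave no adjusted p for 17 and 16 of the 33. By edgeR 4 of the 33 were called in Ocn+/- and 6 in Ocn-/-, counting those that met the filter only with WT. The edgeR shares of all genes were 8.25% and 5.64%.

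**Figure D2:**
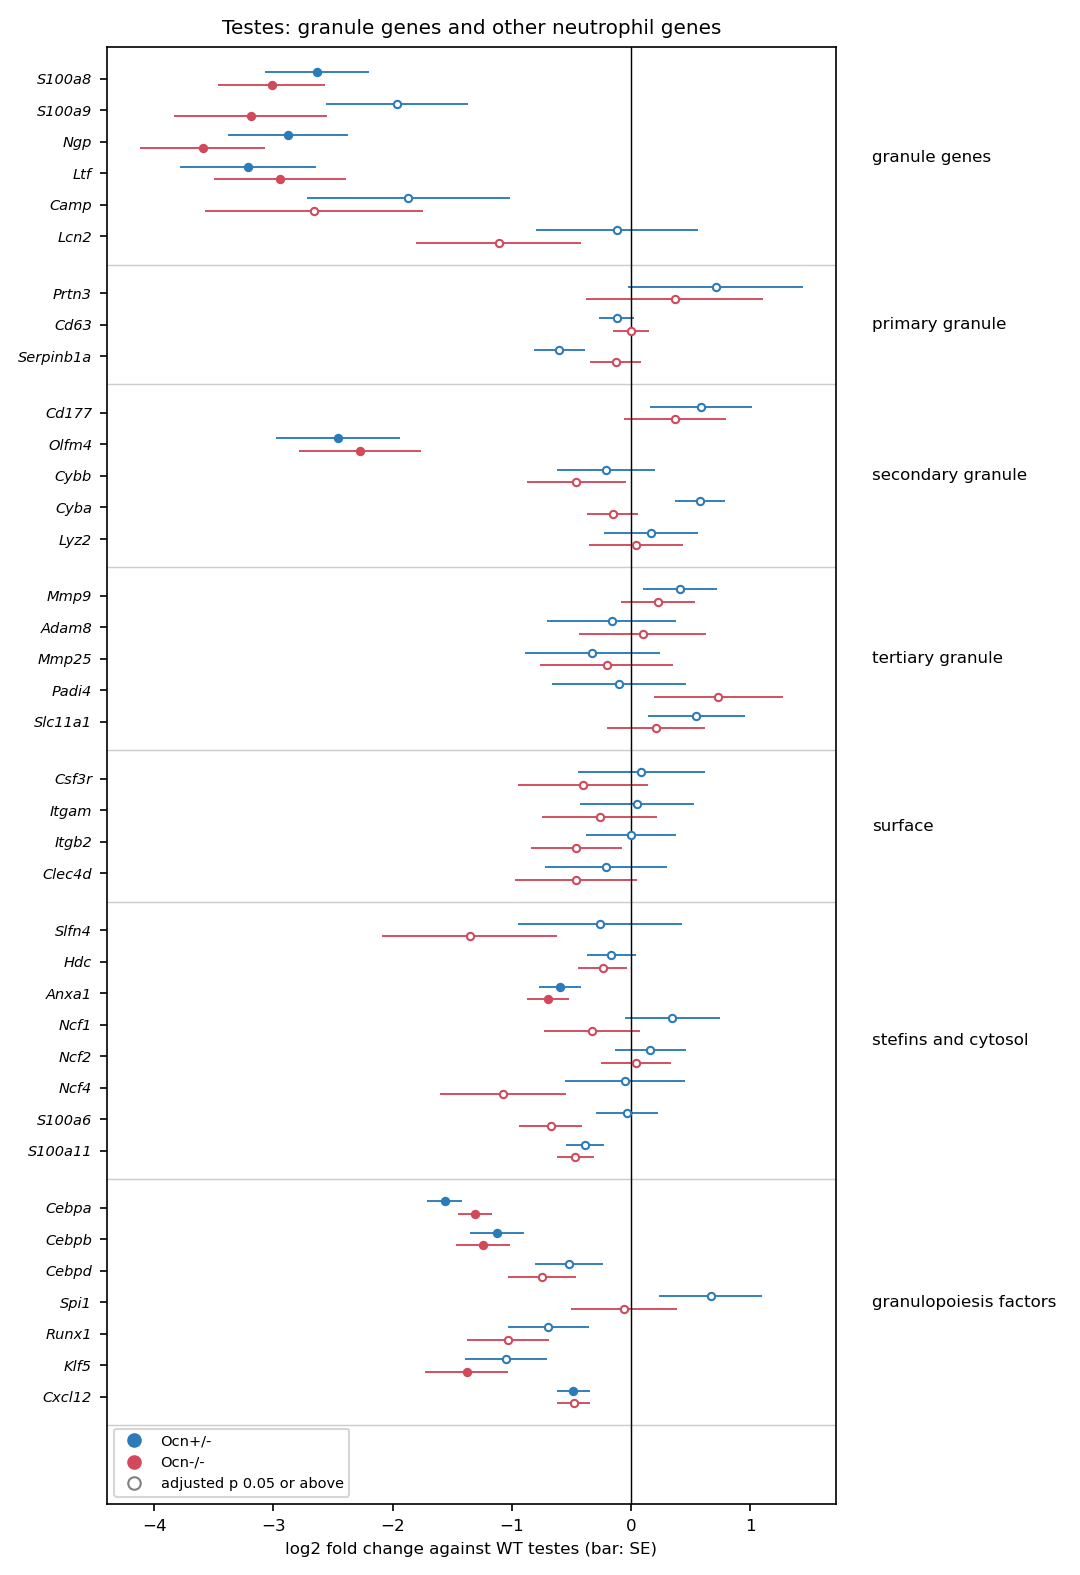
Log2 fold change from WT testes (x axis) with its SE (horizontal bar) for tested granule genes, other neutrophil genes and granulopoiesis factors by role, in blue for Ocn+/- and red for Ocn-/-, filled where edgeR's adjusted p was under 0.05. Chil3 is left out because its mutant counts were near 0, as are the other neutrophil genes that met the filter on low counts only with the WT libraries. S100a8, S100a9, Ngp and Ltf lay between -1.96 and -3.59 and Lcn2 at -0.12 and -1.11, and within the secondary granule list Olfm4 lay at -2.46 and -2.27 and Cd177 above 0.

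Factors that drive the making of neutrophils form a further list, of which 7 of 10 could be tested in testes, 3 were lower and 0 higher in each of Ocn+/- and Ocn-/-, beside 4.36% and 3.09% lower among all tested genes. Cebpa had 82.8 and 84.8 CPM in WT testes, 30.3, 23.8 and 30.9 CPM in Ocn+/-, and 33.2, 34.0 and 34.2 CPM in Ocn-/-, with tight replicates and no overlap. Its log2 fold changes by edgeR were -1.56 ± 0.144 (adjusted p = 8.88e-06) and -1.31 ± 0.143 (adjusted p = 6.16e-05). Cebpb had 21.5 and 26.7 CPM in WT and 7.65 to 12.8 CPM in mutants, with -1.12 ± 0.228 (adjusted p = 0.00887) and -1.24 ± 0.228 (adjusted p = 0.00542). Both genes are also expressed in many cells that are not myeloid. Cxcl12, the chemokine that holds neutrophils in marrow and the most abundant of the list at 462 CPM, passed in Ocn+/- (-0.48, adjusted p = 0.0439) and missed in Ocn-/- (-0.48, adjusted p = 0.0543). Klf5 passed in Ocn-/- (-1.38, adjusted p = 0.0324) and missed in Ocn+/- (-1.05, adjusted p = 0.0702). Cebpe, the factor of the secondary granule stage, had 4 and 3 counts in WT and 0 to 6 in mutants and could not be tested. The list, led by Cxcl12, summed to 718 and 745 CPM in WT and 403 to 565 CPM in mutant testes, with no overlap.

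Spi1, which encodes PU.1, had 15 and 16 counts in WT testes and 14 to 28 in mutants. Of the 5 markers of marrow progenitors, 4 could be tested. Cd34, which vessels also express, was lower in Ocn+/- testes (-0.52 ± 0.139, edgeR adjusted p = 0.0335). In Ocn-/- testes 0 passed, with 1 at an unadjusted p under 0.05, beside 23.0% of all tested genes. The highest of them were Cd34 at 282 and Kit at 29.6 CPM. The list as a whole was at 374 to 405 CPM in WT and 245 to 327 CPM in mutant testes.

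Lists for other blood cells were read beside these values. Of all tested genes, 25.9% in Ocn+/- and 23.0% in Ocn-/- testes had an unadjusted p under 0.05. Of 13 tested macrophage genes 0 were lower and 1, Cx3cr1, was higher in Ocn+/- testes, and 0 passed in Ocn-/-, with 6 at an unadjusted p under 0.05. The summed macrophage level was 249 to 267 CPM in WT and 136 to 273 CPM in mutant testes. Of 5 tested monocyte genes, F13a1 was lower in Ocn-/- and 0 in Ocn+/- (1 at an unadjusted p under 0.05), and the sum, led by Fn1 and Vcan, was 1375 to 1504 CPM in WT and 897 to 1312 CPM in mutants. Of 4 tested mast cell and eosinophil genes, Tpsb2 was higher in Ocn+/- and 0 passed in Ocn-/- (1 unadjusted), at 53.5 to 56.1 CPM in WT and 32.6 to 77.5 CPM in mutants, led by Cpa3 and Tpsb2. Platelet genes, led by Itga2b and Gp1ba, summed to 6.48 to 7.32 CPM in WT and 4.59 to 6.19 CPM in mutants, and lymphocyte genes, led by Cd79a and Cd79b, to 3.79 to 5.7 and 2.29 to 6.44 CPM. Of 2 tested genes in each, 0 passed by edgeR, and 0 had an unadjusted p under 0.05. Of 6 tested genes of acute inflammation, Ptgs2 was lower in Ocn-/- and 0 passed in Ocn+/- (1 unadjusted), and their sum, led by Steap4 and Socs3, was 77.5 to 79.6 CPM in WT and 70.8 to 88.3 CPM in mutants. Of these lists, the monocyte and platelet sums did not overlap between WT and mutants, but not every gene followed its sum. Means are listed in the order WT, Ocn+/-, Ocn-/-. The leading monocyte genes fell, Fn1 (923, 878, 716 CPM) and Vcan (465, 357, 321 CPM), while Ccr2 rose (0.893, 1.59, 2.51 CPM). Among platelet genes Gp1ba fell (3.2, 1.996, 1.69 CPM) and Itga2b did not (2.87, 3.04, 2.93 CPM). Whether monocytes or platelets differed in number was not tested.

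The summed level of the 12 testis genes did not overlap between WT and mutants either. Leydig cell genes of steroid synthesis were among them. Star, which carries cholesterol into mitochondria, was at 518 and 299.9 CPM in WT and 56.0 to 215 CPM in mutants. Cyp11a1 was at 413 and 422 CPM in WT and 136 to 306 CPM in mutants, and Cyp17a1 at 341 and 473 CPM and 36.5 to 303 CPM. For these 3 genes the mutants did not overlap with WT, and 0 passed edgeR's test in either comparison, with adjusted p from 0.079 to 0.382. Of the 12, 1 passed in each comparison, the Sertoli cell gene Sox9, which was higher in Ocn+/- by 0.92 ± 0.154 (adjusted p = 0.0031) and in Ocn-/- by 1.10 ± 0.154 on the log2 scale (adjusted p = 0.000777). At an unadjusted p under 0.05 there were 3 of the 12 in Ocn+/- and 5 in Ocn-/-, beside 25.9% and 23.0% of all tested genes. The part of testis cell makeup in the difference was not tested.

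**Figure D3:**
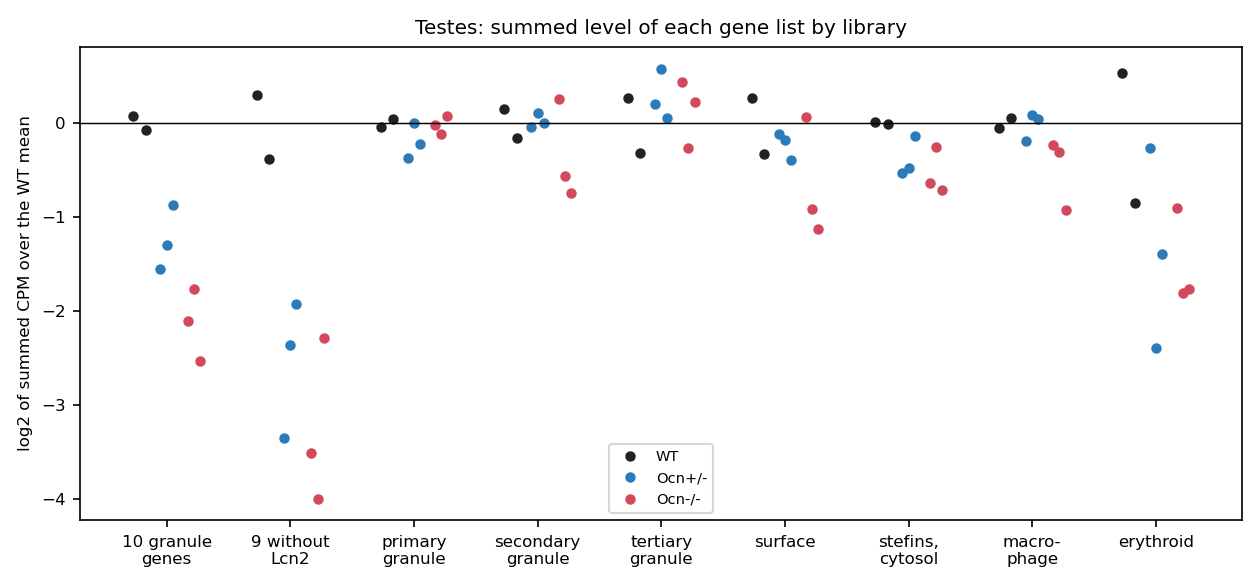
Summed CPM of each gene list in every testis library, as log2 of its ratio to the WT mean (y axis), in black for WT, blue for Ocn+/- and red for Ocn-/-. Of the lists plotted, the 9 granule genes without Lcn2 stood at 43.8 and 70.4 CPM in WT and 3.57 to 14.99 CPM in mutants. The list of stefins and cytosol genes did not overlap either, at 417 to 425 CPM in WT and 256 to 382 CPM in mutants, and the primary, secondary and tertiary granule, surface, macrophage and erythroid lists overlapped between WT and mutants.

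Red cell transcripts were read beside the granule genes. Summed hemoglobin was 6791 and 2568 CPM in WT, 3907, 852 and 1757 CPM in Ocn+/-, and 2490, 1299 and 1336 CPM in Ocn-/- testes, so that the mean of WT was 2.41 times that of the mutants and the groups overlapped. Of 8 tested erythroid genes, 1 was lower in Ocn+/-, Slc25a37, and 0 passed in Ocn-/- testes. At an unadjusted p under 0.05 there were 2 in Ocn-/-, beside 23.0% of all tested genes. The whole erythroid list, led by Hbb-bs and Hba-a1, summed to 2654 to 6939 CPM in WT and 909 to 3992 CPM in mutant testes, and of 13 genes found, Hbb-y and Hbb-bh1 had at most 3 counts in every testis. Per 1000 hemoglobin counts, the 9 genes without Lcn2 had 10.4 and 17.05 counts in WT and 1.43 to 13.04 in mutants, where Ocn+/- replicate 2 lay above WT replicate 1. Among the mutants, Ocn+/- replicate 1 held the most hemoglobin, with 5.58 CPM of the 9 genes, and Ocn+/- replicate 2 the least, with 11.1 CPM. The part of blood content in the difference was not tested. A list of bone genes, led by Col1a1 and Alpl, summed to 2081 to 2758 CPM in WT and 1494 to 3338 CPM in mutant testes, and 1 of 6 tested was lower in each comparison.

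**Figure D4:**
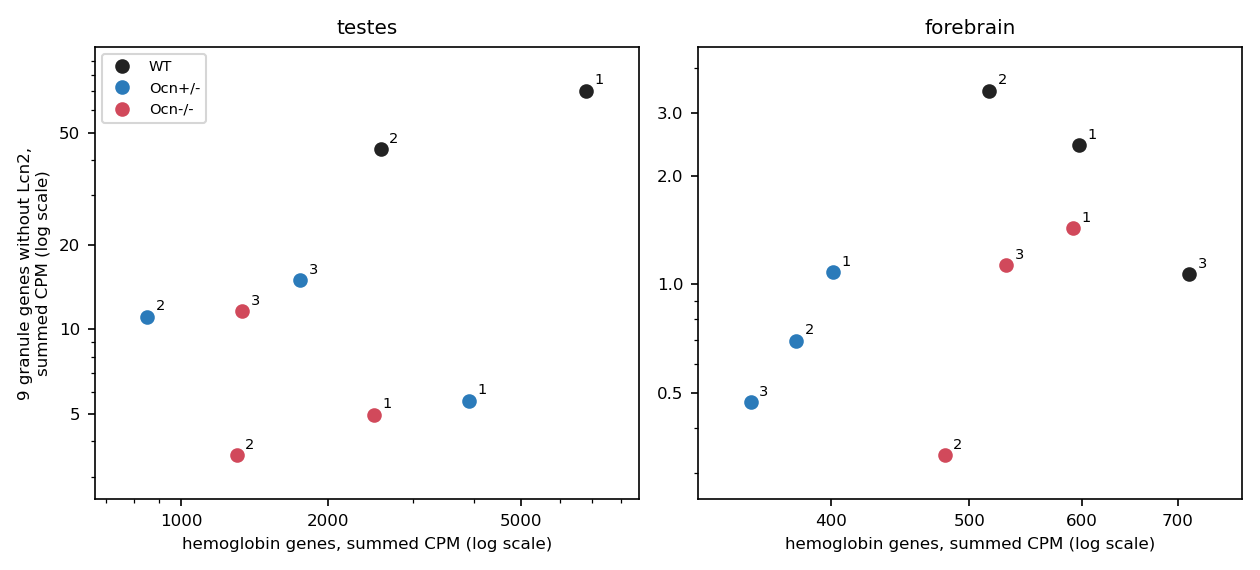
Summed CPM of the 9 granule genes without Lcn2 (y axis, log scale) against summed CPM of the hemoglobin genes (x axis, log scale), a point per library numbered by replicate, testes at left and forebrain at right, in black for WT, blue for Ocn+/- and red for Ocn-/-. In testes hemoglobin overlapped between WT, at 2568 and 6791 CPM, and mutants, at 852 to 3907 CPM, and the granule genes lay at 43.8 and 70.4 CPM in WT and at 3.57 to 14.99 CPM in mutants.

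In forebrain the 10 genes were at the edge of detection, and none passed the filter on low counts, so that 0 of the 10 were tested there. Of all genes tested in forebrain, 2.68% were lower and 1.21% higher in Ocn+/-, 3.05% lower and 1.8% higher in Ocn-/-, and 0.00622%, 1 gene, was higher in Ocn-/- than in Ocn+/-. The largest count of any of them in a forebrain library was 11. S100a8 had 9, 6 and 0 counts in WT, 2, 3 and 1 in Ocn+/-, and 6, 1 and 4 in Ocn-/-. S100a9 had 1, 7 and 1 counts in WT, 8, 1 and 5 in Ocn+/-, and 3, 0 and 4 in Ocn-/-, with no order between genotypes. Ngp was the one gene with every WT library above every mutant, at 0.839, 0.922 and 0.356 CPM against 0 to 0.24 CPM, a separation seen in 8.57% of all tested genes. Its counts were 11, 8 and 2 in WT, 0, 2 and 0 in Ocn+/-, and 3, 1 and 3 in Ocn-/-. Scaled for depth, the pooled ratio of WT to Ocn-/- was 4.46 (exact 95% counting interval 1.83 to 12.4) and to Ocn+/- 16.3 (3.99 to 143).

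Ltf had 9, 4 and 0 counts in WT forebrains and 0 to 5 in mutants, and Lcn2, the most abundant of the 10 in testes, had 3, 6 and 0 in WT and 0 to 6 in mutants. Camp, Chil3, Retnlg and Mpo had at most 3 counts in every forebrain and Elane 0. The summed level was 2.67, 4.15 and 1.07 CPM in WT, 1.15, 0.697 and 0.538 CPM in Ocn+/-, and 1.52, 0.335 and 1.58 CPM in Ocn-/- forebrains. WT replicates 1 and 2 were above every mutant, and WT replicate 3 was within their range. The log2 ratio to WT was -1.72 in Ocn+/- and -1.20 in Ocn-/-, and -2.10 and -1.57 without WT replicate 3. Summed hemoglobin was 517 to 714 CPM in WT and 351 to 591 CPM in mutant forebrains, and was highest in WT replicate 3.

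Of the other neutrophil genes 23 could be tested in forebrain, and 0 passed edgeR's test in Ocn+/- or Ocn-/-, where 3.89% and 4.85% of all genes passed. At an unadjusted p under 0.05 there were 3 and 4, beside 20.3% and 21.7% of all tested genes, and DESeq2 called 0. Olfm4, the clearest in testes, had 2.67, 3.34 and 4.8 CPM in WT, 1.42, 3.33 and 1.75 CPM in Ocn+/-, and 1.76, 1.94 and 2.33 CPM in Ocn-/- forebrains. Every Ocn-/- library was below every WT library, and Ocn+/- replicate 2 lay within the WT range, whose highest value is that of the library that stood apart. The log2 fold changes were -0.70 in Ocn+/- (edgeR adjusted p = 0.269) and -0.79 in Ocn-/- (adjusted p = 0.197), and neither passed. Whether its change from WT differed between organs was tested in a joint fit of all 17 libraries, with a difference of -1.62 on the log2 scale that did not pass (edgeR adjusted p = 0.113), and 0 of the other neutrophil genes passed that test, where 2.96% of all genes did. Cebpa, at 2.3 to 2.49 CPM in WT forebrains and 1.35 to 3.84 CPM in mutants, and Cebpb did not pass in forebrain. Of 7 tested factors of that list 0 passed there in either comparison, with 2 in each at an unadjusted p under 0.05. Cebpd had 4.12 to 6.45 CPM in WT and 1.08 to 3.51 CPM in mutants, and Cxcl12 had 87.5 to 119 CPM in WT and 51.1 to 80.0 CPM in mutants (edgeR adjusted p = 0.0875 in Ocn+/- and 0.0622 in Ocn-/-). The list, led by Cxcl12, summed to 112 to 148 CPM in WT and 72.5 to 104 CPM in mutant forebrains, with no overlap. Without WT replicate 3 the WT values were 112 and 135 CPM for the sum and 87.5 and 108 CPM for Cxcl12. The highest of the 53 there were Cd63 and S100a11, at 36.7 and 12.6 CPM.

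Between organs, the mean of the 8 testes was above that of the 9 forebrains for each of the 10 genes, from 21.8 against 0.176 CPM for Lcn2 and 5.76 against 0.296 CPM for S100a8 to 0.254 against 0.0363 CPM for Mpo and 0.0316 against 0 for Elane. Of 34 other neutrophil genes tested, 26 were higher in testes and 4 in forebrain by edgeR, beside 44.5% and 39.9% of all tested genes. Those higher in forebrain included Prtn3, which encodes proteinase 3 of the primary granules, Pglyrp1 and Mmp25. Prtn3 was at 0.382 to 1.39 CPM in testes and 1.73 to 3.9 CPM in forebrain (log2 difference -2.0, adjusted p = 3.47e-07), and thus ran opposite to the granule genes.

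Over both organs, the genes outside the neutrophil lists whose levels were most like the mean of the 10 genes' standardised log2 CPM were Pde4d, Acer2, Ndrg1, Eno1 and Ptp4a1, of 14569 genes compared. The lower of the Pearson correlations in testes (8 libraries) and forebrain (9 libraries) was 0.928 for Pde4d, a cAMP phosphodiesterase, 0.916 for Acer2, an alkaline ceramidase, 0.904 for Ndrg1, 0.902 for Eno1, the glycolytic enolase, and 0.899 for Ptp4a1. In testes 7 of the 10 genes separated WT from mutant libraries, and a shared gap of this kind can raise a correlation. In forebrain 1 of the 10 did so, Ngp. Whether the named genes separate WT from mutants is not given here. In forebrain the profile rests on few counts, since Camp, Chil3, Retnlg and Mpo had at most 3 in every library and Elane 0.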

How the data were processed

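Poly-A RNA of 17 libraries from testes and forebrain at postnatal day 1 was sequenced by the authors. Per the labels and the study's methods, reads were trimmed with Trim Galore 0.6.6, aligned to GRCm39 with STAR 2.7.8a and counted with RSEM 1.3.3. The authors deposited expected counts per gene without normalization, and 9625 of 55359 genes held values that were not whole. The strandedness and the GENCODE release are not given in the sources used here. GENCODE vM39 supplied names for 54749 genes.

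Expected counts were rounded. Each organ was fitted alone over its 3 genotypes in edgeR 4.0.16 (R 4.3.3) with TMM factors, filterByExpr by genotype, robust quasi-likelihood tests and no covariates, at a Benjamini-Hochberg adjusted p under 0.05 over all tested genes (16361 in testes, 16076 in forebrain). Organs were compared in a joint fit of 17 libraries. All tests were two-sided. CPM, depth-scaled counts, used effective library sizes. The 10 genes and all lists were chosen with earlier results of these data known. Named beside the 10 are the other neutrophil genes past the threshold, the 3 most abundant per organ, and the 2 most abundant of each remaining list. Genes named outside this rule, such as Mmp8, Cd177, Cyba, Lyz2, Cybb, S100a16, Fcnb, Csf3r, Cxcr2, Ly6g, Fpr1, Spi1, Cebpe and S100a6, were chosen after their values were seen. Of 183 list genes 180 were found, and some genes that this rule would name are not reported here.

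Alternatives were DESeq2 1.42.0, upper quartile or library size scaling, no filter, at least 10 counts in every library, the likelihood ratio test, fits of 2 genotypes, a replicate block and leaving out each library. Intervals cover counting error only.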

Additional observations from a re-analysis of the deposited data

How the results depend on the processing

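Alternatives were run per gene for 15 genes in testes, and none of their called fold changes against WT changed direction, which for most of them the choice of genes or the filter on low counts fixed. Among fold changes that were not called, that of Lcn2 in Ocn+/- testes changed sign (-0.12, against 0.43 without WT replicate 2 and 0.20 with the replicate block), as did those between Ocn-/- and Ocn+/- testes for 8 of 15 named genes, Ltf among them (0.27, and -0.32 without Ocn-/- replicate 3). DESeq2 called 3 granule genes in Ocn-/- testes (no adjusted p for 3) in place of 5, where it called 9.57% of all genes in place of 5.64%. Of the other neutrophil genes it called 2 in each comparison with WT, in place of 4 in Ocn+/- and 6 in Ocn-/-. Requiring at least 10 counts in every library left 1 granule gene to test and 0 called in either comparison, 1 other neutrophil gene called in each, and 8 of 8 called between organs, because fewer genes could be tested. Without a filter on low counts, 1 other neutrophil gene was called between Ocn-/- and Ocn+/- testes and 1 granule gene in Ocn+/- forebrain. Over all genes, no filter gave 2149 and 1763 calls in Ocn+/- and Ocn-/- testes, 252 between them, and 1265 and 1502 in forebrain, where library size alone gave 369 in Ocn+/-. The likelihood ratio test gave 1389 in Ocn-/- testes and 944 in Ocn+/- forebrain, and the fit of 2 genotypes 2084 in Ocn+/- testes. Between Ocn-/- and Ocn+/- testes DESeq2 called 76 genes and the likelihood ratio test 59. The causes were not tested. Without Lcn2, chosen after seeing the data, the summed level in testes was -2.43 (Ocn+/-) and -3.09 (Ocn-/-) on the log2 scale against -1.22 and -2.10 with it. Leaving out a mutant testis gave 3 to 5 granule genes in Ocn+/-, where 2.16% to 12.5% of all genes were called. In Ocn-/- it gave 4 to 6, where 2.51% to 9.57% of all genes were called. Of the other neutrophil genes up to 6 were called in each, in place of 4 and 6. In Ocn+/- forebrain leaving out any library gave 0 to 1 of either. The summed level ranged from -1.42 to -1.07 and from -2.30 to -1.93 in testes, from -2.10 to -1.23 and from -1.57 to -0.71 in forebrain, and the calls between organs from 28 to 32. With 2 WT testes, leaving out a WT library assumes that the lone one varied like the other groups. Deviations of same-numbered libraries had r from -0.09 to 0.09 in testes and -0.04 to 0.14 in forebrain. For libraries of different numbers r was -0.12 to 0.12 and -0.19 to 0.10. Values this near 0 cannot settle whether the numbers pair the libraries, and the labels do not say. With the replicate number as a block, 5 granule genes were called in each comparison with WT in testes (5.9% and 5.11% of all genes). Of the other neutrophil genes 3 and 4 were called, in place of 4 and 6, and 30 between organs. Depth limited Camp, Chil3, Retnlg, Mpo and Elane in testes and all 10 genes in forebrain.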
